A study of Mus musculus with 6 samples.

Results

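Complement is a cascade of plasma and tissue proteins that marks particles and cells for removal. In the classical pathway C1q, built from chains A, B and C, binds a target, and the attached proteases cut C4 and C2 to form an enzyme that cleaves C3, the protein on which all complement pathways meet. In the alternative pathway factor B binds deposited C3 fragments and adds to C3 cleavage, while C1 inhibitor (Serping1) blocks the C1 proteases and factor I (Cfi) cuts up deposited C3 and C4 fragments. In the retina, microglia are known as a main source of C1q, and complement is known for tagging synapses and debris for uptake.

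Transcripts of 9 complement genes were followed in mouse retina, out of 26138 genes tested on the same arrays. They were found by their gene name in the array annotation, and the set was drawn up with earlier results of these data known. The classical genes were C1qa, C1qb, C1qc, C2 and C4b, the alternative pathway was covered by C3 and Cfb, and the inhibitors were Cfi and Serping1. C3 serves every pathway and was placed with Cfb for counting only. All 9 genes passed the filter on dim probes, through 11 probes of 60 bases that were all well above background in Cy5 and in Cy3 on each of the 6 arrays.

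Retinas were taken 7 days after the right eye of male C57BL/6 mice, then 8 weeks old, was injected in its vitreous body, the clear gel in front of the retina. The injection held phosphate-buffered saline (PBS), titanium dioxide nanoparticles at a dose labelled PTC, or the particles at 10 times that dose, labelled 10PTC. With 12 mice in a group and 4 retinas in a tube there were 3 pools per dose. Each of the 6 arrays carried a nanoparticle pool in Cy5 and RNA of PBS retinas in Cy3, so values are log2 of nanoparticle over PBS, where 1 is a doubling. Injected eyes without particles are thus the control, and eyes without injection were not analysed here. No array had the dyes exchanged, so an effect of the dyes on a gene cannot be told apart from treatment. The sources used here do not say whether the PBS RNA was that of 1 pool or of several. PTC replicates 1 and 2 lay on slide 1, and PTC replicate 3 lay on slide 2 together with the 10PTC replicates. All 8 markers of rods, the most abundant cells of the mouse retina, had signals above background in Cy5 and Cy3 alike on each array. In bulk tissue, fewer cells of a type and less RNA per cell cannot be told apart.

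At PTC, 7 of the 9 complement genes were higher than in PBS retinas and none was lower, at a limma adjusted p under 0.05, against 16.8% of all genes tested that were higher by the same rule. At 10PTC, 7 of 9 were again higher and none lower, against 14.4% of all genes, and the means of all 9 lay above 0 at both doses. C1qa, C1qb, C1qc, C4b, Cfi and Serping1 passed at both doses, C2 passed at PTC alone and Cfb at 10PTC alone, and C3 at neither, and for none of these 3 did the difference between the doses pass. Without 10PTC replicate 1, 4 of 9 passed at 10PTC, as C1qb, C1qc and Cfb did not, and 2.95% of all genes were higher. The median log2 ratio of the 9 genes was 0.85 at PTC and 1.08 at 10PTC, while the median of all genes was -0.00077 and -0.00047. Of the 9 genes, 4 averaged 2-fold or more above PBS at PTC and 6 at 10PTC, against 0.494% and 0.375% of all genes. Limma p-values here rest on the spread of the ratios between arrays, and 6 arrays limit how precise they are. If the PBS RNA was that of 1 pool, its own deviation would be in every ratio of a gene. The p-values would then not cover the spread between PBS pools.

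**Figure D1:**
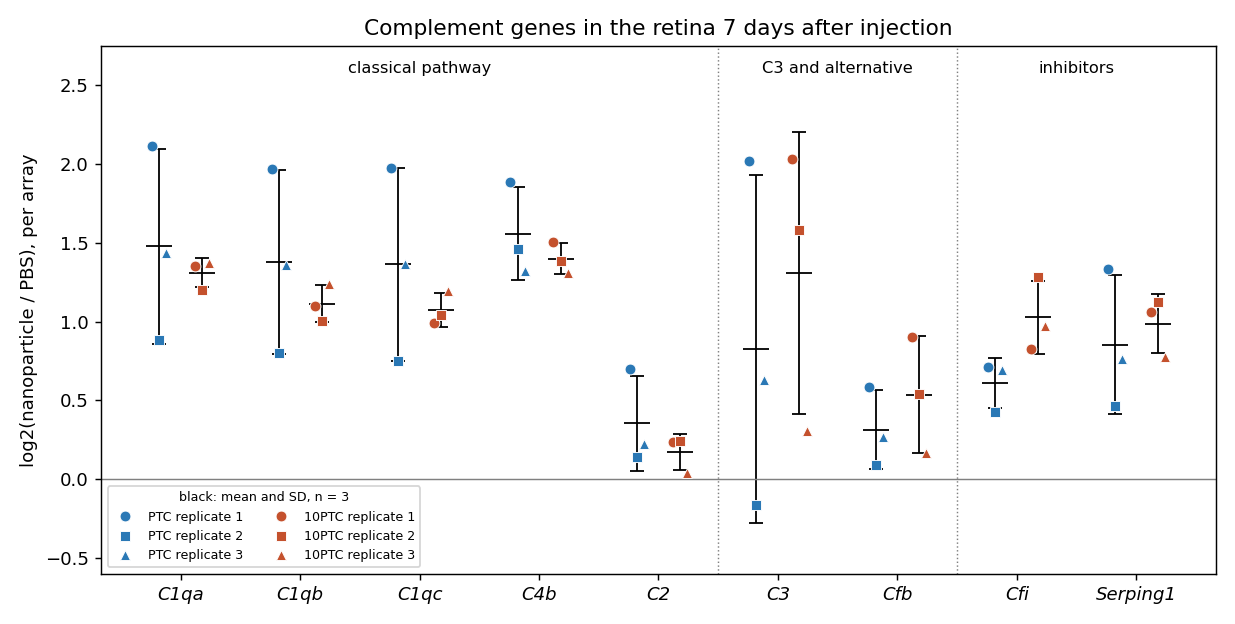
Log2 ratio of nanoparticle over PBS (vertical axis, log2 units) for each of the 9 complement genes (horizontal axis) on each of 3 PTC and 3 10PTC arrays, with black marks for the mean and SD. The C1q genes and C4b lie above 0.7 on every array, C3 is spread from -0.16 to 2.03, and C2 lies below 0.7.

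C1qa encodes the A chain of C1q. Its log2 ratios were 2.12, 0.88 and 1.43 in the PTC pools and 1.35, 1.20 and 1.37 in the 10PTC pools. The scanner signal of the nanoparticle channel ran from 1056 to 2576, while that of the PBS channel on the same arrays stayed between 439 and 517, both before background correction. C1qa averaged 1.48 ± 0.62 at PTC and 1.31 ± 0.093 at 10PTC (SD, n = 3 each), which are 2.78-fold and 2.48-fold (limma adjusted p = 0.00246 and 0.00469). All pools were above PBS, and the PTC pools enclosed the 10PTC pools.

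C1qb and C1qc, the other chains, had nearly the same values. C1qb had 1.97, 0.80 and 1.36 at PTC and 1.10, 1.00 and 1.24 at 10PTC. C1qc had 1.98, 0.75 and 1.37 at PTC and 0.99, 1.04 and 1.20 at 10PTC. For all 3 C1q genes PTC replicate 1 was the highest of the 6 arrays and PTC replicate 2 the lowest. C1qb averaged 1.38 ± 0.58 at PTC and 1.11 ± 0.12 at 10PTC (limma adjusted p = 0.00266 and 0.00669), and C1qc 1.36 ± 0.61 and 1.08 ± 0.11 (limma adjusted p = 0.00311 and 0.00861). The root mean square difference over the 6 arrays was 0.055 between C1qb and C1qc, the smallest of the 36 pairs among the 9 genes, and 0.16 between C1qa and C1qb. The C1qc probe is spotted 10 times, and the SD between spots of an array was 0.013 to 0.035, which is the spread within an array only.

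The probes behind the C1q values lie side by side on chromosome 4 (mm9, the build of the array design, minus strand), within 15.9 kb from C1qb to C1qa. The C1qa probe spans 136452409 to 136452468, the C1qb probe 136436578 to 136436637 and the C1qc probe 136445766 to 136445825. The probe sequences of the A and B chains are given because they are the sequences that read these transcripts.
C1qa probe: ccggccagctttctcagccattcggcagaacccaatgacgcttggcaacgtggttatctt
C1qb probe: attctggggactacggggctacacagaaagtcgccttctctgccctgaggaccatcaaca

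C4b encodes complement C4, which binds to targets after C1 cuts it. Its log2 ratios were 1.89, 1.46 and 1.32 at PTC and 1.51, 1.39 and 1.31 at 10PTC, so that every pool was well above PBS. The nanoparticle channel read 7474 to 12905 and the PBS channel 2152 to 2528. The means were 1.56 ± 0.30 and 1.40 ± 0.10 (SD, n = 3 each), or 2.95-fold and 2.64-fold, with the smallest limma adjusted p of the 9 genes at each dose (0.000378 and 0.000773). C4b passed under each of the 21 alternatives at PTC and 20 at 10PTC. The probe, on chromosome 17 (mm9, 34865328 to 34865387, minus strand), also carries the accession of C4a, a near-identical neighbouring gene, so C4b and C4a cannot be told apart.

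C2 encodes the protease that joins C4 in the C3-cleaving enzyme. C2 had 0.70, 0.14 and 0.22 at PTC and 0.24, 0.24 and 0.04 at 10PTC, with PTC replicate 1 apart from the other 5 arrays. Its mean of 0.35 ± 0.30 at PTC passed (limma adjusted p = 0.0360) and the 0.17 ± 0.12 at 10PTC did not (limma adjusted p = 0.243). The 10PTC minus PTC difference was -0.18, with a 95% interval of -0.52 to 0.16. The call at PTC ended in 11 of 21 alternatives, among them leaving out PTC replicate 1 (0.18, limma adjusted p = 0.0841). The C2 probe (chromosome 17, mm9, 34999575 to 34999634, minus strand) and the Cfb probe lie within 6.13 kb, and C4b lies on the same chromosome within 134 kb.

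C3 varied most among the 9 genes. The log2 ratios were 2.02, -0.16 and 0.63 at PTC and 2.03, 1.58 and 0.31 at 10PTC. PTC replicate 1 and 10PTC replicates 1 and 2 lay at 1.58 to 2.03 and the other 3 arrays at -0.16 to 0.63, so the doses overlapped. C3 averaged 0.83 ± 1.10 at PTC (limma adjusted p = 0.175) and 1.31 ± 0.90 at 10PTC (limma adjusted p = 0.0580), and passed at neither. The PTC mean rests on single arrays, as it was 0.23 without PTC replicate 1 and 1.32 without PTC replicate 2. Signals of the nanoparticle channel ran from 949 to 7791, while the PBS channel held between 820 and 1050. The C3 probe is spotted 10 times, with an SD between spots of 0.014 to 0.080 on an array, which is the spread within an array only.

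The other C3 probe had a smaller ratio in the same order of arrays, with 1.30, -0.13 and 0.32 at PTC and 1.31, 1.04 and 0.14 at 10PTC. Its means were 0.50 ± 0.74 and 0.83 ± 0.61 (SD, n = 3 each; limma adjusted p = 0.216 and 0.0669 in a fit over all probes added after seeing the data). C3 passed at 10PTC in 7 of 20 alternatives, for example without PTC replicate 2 (limma adjusted p = 0.0420). The 20 include the less bright probe and the mean over probes, and C3 passed in neither of these. Both probes lie on chromosome 17 (mm9, minus strand), at 57343416 to 57343475 and 57343678 to 57343737. The sequence of the less bright probe is given, since this probe repeats the order of the pools.
C3 probe: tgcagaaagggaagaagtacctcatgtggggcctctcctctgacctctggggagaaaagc

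Cfb encodes factor B, the protease of the alternative pathway. Its log2 ratios were 0.59, 0.09 and 0.27 at PTC and 0.90, 0.54 and 0.16 at 10PTC. The 6 arrays fell in the same order for Cfb as for C3, with 10PTC replicate 1 highest and PTC replicate 2 lowest. Cfb averaged 0.31 ± 0.25 at PTC (limma adjusted p = 0.121) and 0.54 ± 0.37 at 10PTC, where it passed (1.45-fold, limma adjusted p = 0.0284). It was the dimmest of the 9 genes, with 181 to 518 in the nanoparticle channel and 144 to 171 in the PBS channel. The call at 10PTC ended on the scanner software's processed signals (limma adjusted p = 0.0614) and in the authors' deposited table, and without 10PTC replicate 1 (0.35, limma adjusted p = 0.160) or replicate 2 (limma adjusted p = 0.0974). The Cfb probe maps to 34993502 to 34993858 on chromosome 17 (mm9, minus strand), a span of 357 bases for 60 probe bases, so in these coordinates its bases are split over an intron, and it is given for that reason.
Cfb probe: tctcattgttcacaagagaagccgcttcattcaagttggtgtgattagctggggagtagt

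Serping1 encodes C1 inhibitor, which inactivates the C1 proteases. The log2 ratios were 1.33, 0.47 and 0.76 at PTC and 1.06, 1.13 and 0.78 at 10PTC. All 6 were above PBS and the doses overlapped. Serping1 averaged 0.85 ± 0.44 at PTC and 0.99 ± 0.19 at 10PTC (SD, n = 3 each), or 1.81-fold and 1.98-fold (limma adjusted p = 0.00611 and 0.00514). Its other probe read higher, at 1.19 ± 0.39 and 1.34 ± 0.15 (limma adjusted p = 0.00137 and 0.00131 in the added fit over all probes). Both lie on chromosome 2 (mm9, minus strand), the brighter at 84605663 to 84605722 and the other, split over an intron, at 84605968 to 84607474. The split probe is given because it reads spliced RNA.
Serping1 probe: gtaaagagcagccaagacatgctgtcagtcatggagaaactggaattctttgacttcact

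Cfi encodes factor I, which degrades deposited C3 and C4 fragments with the help of cofactors. Of the 9 genes it had the smallest p for a difference between the doses. It had 0.83, 1.28 and 0.97 at 10PTC, against 0.71, 0.43 and 0.69 at PTC, so that every 10PTC pool was above every PTC pool. Of all genes, 15.5% had doses that did not overlap, in either direction. The Cfi means were 1.03 ± 0.23 at 10PTC and 0.61 ± 0.16 at PTC (SD, n = 3 each), both higher than PBS (limma adjusted p = 0.00136 and 0.00390). The probe lies on chromosome 3 (mm9, 129578165 to 129578224, plus strand).

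The direct comparison of 10PTC with PTC asked whether the complement genes differed between the doses. In limma none of the 9 passed, and neither did any of the 26138 genes (0%). At an unadjusted p under 0.05 limma had 1 of 9, Cfi, and between 0 and 4 across the alternatives. The Cfi difference was 0.42, with a 95% interval of 0.11 to 0.72 (limma adjusted p = 0.570). Cfi was also the only gene of the 9 whose 10PTC and PTC arrays did not overlap, while 15.5% of all genes had such groups. Within slide 2, where PTC replicate 3 is the only PTC array, the Cfi difference was 0.34, with no spread of its own at PTC. For the other genes the 95% intervals were -0.80 to 0.46 for C1qa, -0.87 to 0.34 for C1qb, -0.92 to 0.34 for C1qc, -0.49 to 0.18 for C4b, -0.94 to 1.90 for C3, -0.24 to 0.68 for Cfb and -0.36 to 0.63 for Serping1. The design therefore leaves room for differences of these sizes between the doses.

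Averaged over genes of a class, the classical genes stood above the inhibitors in all PTC pools and close to them in the 10PTC pools. Gene by gene this fails for C2, which lay below Cfi and Serping1 in each PTC pool. The classical mean was 1.73, 0.81 and 1.14 at PTC and 1.04, 0.98 and 1.03 at 10PTC. The inhibitor mean was 1.02, 0.45 and 0.73 at PTC and 0.94, 1.20 and 0.87 at 10PTC. Within an array, the classical minus inhibitor difference was 0.094, -0.23 and 0.16 at 10PTC, against 0.71, 0.36 and 0.41 at PTC, without overlap between the doses. The means of that difference were 0.0074 ± 0.21 at 10PTC and 0.49 ± 0.19 at PTC (SD, n = 3 each). Of all genes taken singly, 15.5% had 10PTC and PTC arrays that did not overlap. The class differences are descriptions without a test, over genes chosen by name. With the other probe of Serping1 the classical minus inhibitor difference was -0.17 at 10PTC and 0.32 at PTC.

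The mean of C3 and Cfb ranged from -0.037 to 1.47 over the 6 arrays, a wider range than that of the classical genes (0.81 to 1.73) or the inhibitors (0.45 to 1.20). Within an array, classical minus alternative was 0.43, 0.84 and 0.69 at PTC and -0.43, -0.087 and 0.80 at 10PTC. The classical mean was thus above the mean of C3 and Cfb in all PTC pools and in 1 of 3 10PTC pools. This does not hold gene by gene, since C3 at 2.02 lay above C1qb, C1qc, C4b and C2 in PTC replicate 1. The means were 0.65 ± 0.21 at PTC and 0.092 ± 0.63 at 10PTC (SD, n = 3 each), and the 10PTC mean was smaller than its spread. Within the classical genes, the C1q genes averaged 1.41 ± 0.61 at PTC and 1.17 ± 0.095 at 10PTC, and C2 with C4b 0.96 ± 0.29 and 0.79 ± 0.10.

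**Figure D2:**
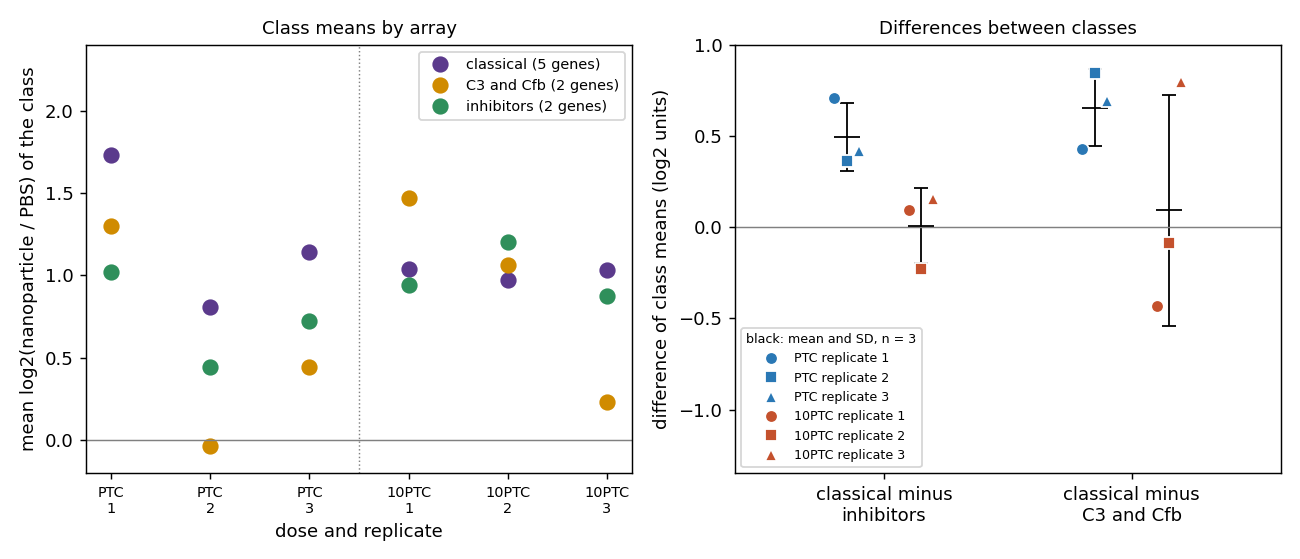
Left, mean log2 ratio of nanoparticle over PBS of the classical, alternative (C3 and Cfb) and inhibitor genes on each array; right, differences between class means within an array (log2 units), with mean and SD of 3 arrays per dose. Classical minus inhibitors lies at 0.36 to 0.71 at PTC and at -0.23 to 0.16 at 10PTC.

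Pools differed in how many complement genes stood high. PTC replicate 1 had 6 of 9 genes at 2-fold or more and a median of 1.89, and PTC replicate 2 had 1 of 9, C4b, and a median of 0.47. PTC replicate 3 had 4 of 9 and a median of 0.76. The 10PTC replicates had 5, 7 and 4 of 9, with medians of 1.06, 1.13 and 0.97. All 9 genes were above PBS on 5 arrays, and on PTC replicate 2 all but C3 were. The share of all genes at 2-fold or more was not counted for single arrays, so these counts describe the 9 genes only. Outside complement, the glial filament gene Gfap was also highest in PTC replicate 1 (2.33) and lowest in PTC replicate 2 (1.23).

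The median of markers of microglia and macrophages was highest and lowest in the same pools as C1q, an order also seen outside these markers. Of 14 such markers, 11 were higher at PTC and 11 at 10PTC and none was lower, against 16.8% and 14.4% of all genes that were higher. Their median over the list was 1.48, 0.46 and 0.88 in the PTC pools and 0.68, 0.69 and 0.82 in the 10PTC pools, with the C1q mean at 2.02, 0.81 and 1.39 and at 1.15, 1.08 and 1.27. Trem2, a microglial surface receptor, averaged 1.91 ± 0.80 at PTC and 1.63 ± 0.060 at 10PTC, Tyrobp, its signalling adaptor, 1.67 ± 0.73 and 1.47 ± 0.15, and Cx3cr1, the fractalkine receptor, 1.34 ± 0.47 and 1.07 ± 0.11 (SD, n = 3 each). Tmem119 and Siglech, markers of resident microglia, and Ptprc, the pan-leukocyte CD45, did not pass at either dose, with means of 0.18 and 0.17, 0.098 and 0.19, and 0.12 and 0.14. The part of cell number in the C1q values was not tested.

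Some other marker lists moved too. Of 6 skeletal muscle markers all 6 were lower at each dose, and of 5 fat markers 5 were lower at PTC and 4 at 10PTC, against 16.3% and 13.3% of all genes that were lower. Of 8 connective tissue markers 3 were lower at PTC and 7 at 10PTC, and of 3 red blood cell markers tested 3 and 2 were lower. Of 8 macroglia markers 4 were higher and 1 lower at each dose, against 16.8% and 14.4% of all genes that were higher at PTC and 10PTC. Gfap, the filament protein of reactive astrocytes and Muller glia, averaged 1.61 ± 0.62 at PTC and 1.44 ± 0.12 at 10PTC (SD, n = 3 each), and Glul, the glutamine synthetase of Muller glia, -0.64 ± 0.21 and -0.61 ± 0.077. Like C1q, Gfap was highest in PTC replicate 1 (2.33) and lowest in PTC replicate 2 (1.23), while Glul was lowest in PTC replicate 1 (-0.81). Of the 8 rod markers 2 were higher at each dose, of 6 endothelial markers 1 was higher and 1 lower at PTC and 1 higher at 10PTC, and of 5 pigment epithelium markers 2 were higher at PTC and 1 was higher and 1 lower at 10PTC. These small counts can be read against the same shares of all genes. The part of these cell types in the complement values was not tested.

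Of 5 neutrophil markers tested, limma called none at PTC and 1 higher at 10PTC, Mpo at 0.16 (limma adjusted p = 0.0329). By the same rule 16.8% of all genes were higher at PTC and 14.4% at 10PTC. At PTC the unadjusted limma p was 0.0310 for S100a8 and 0.0184 for Mpo, both with means above PBS. It was 0.0172 for Camp, which lay below PBS with a mean of -0.18. S100a8 and S100a9 had 2.63 and 2.55 in PTC replicate 1, the pool with the highest C1q, and -0.18 and -0.64 in PTC replicate 2, and did not pass at PTC (limma adjusted p = 0.0783 and 0.241). In PTC replicate 1 Mpo, Elane and Camp had 0.084, -0.050 and -0.19, and the list median was 0.084. Of 6 hepatocyte and plasma protein genes, from the organ that makes most circulating complement, 4 were tested and none was above background throughout. Limma called none at PTC, where Ahsg had an unadjusted p of 0.0311. At 10PTC 1 was lower, Ahsg at -0.15 (limma adjusted p = 0.0479), against 13.3% of all genes that were lower.

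**Figure D3:**
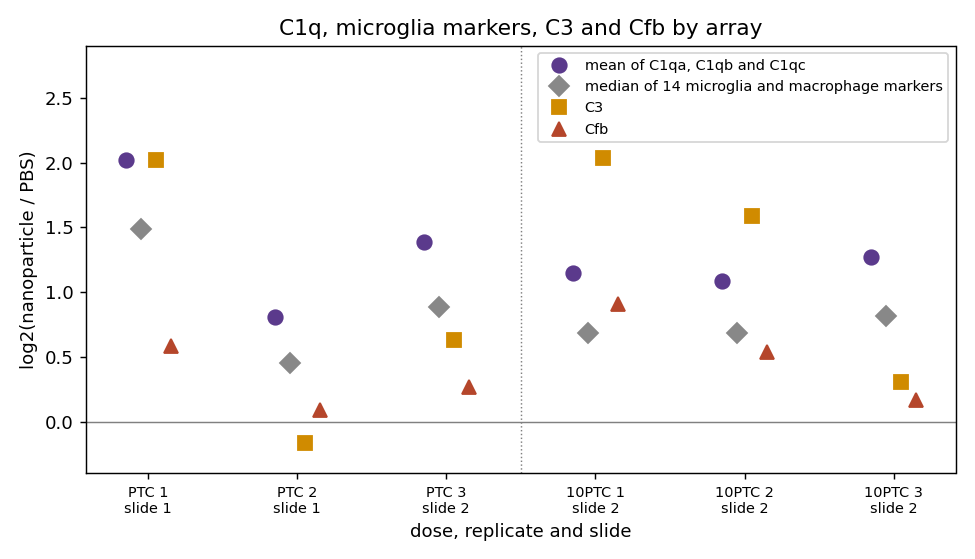
Log2 ratio of nanoparticle over PBS (vertical axis) on each array, with its slide, for the mean of the C1q genes, the median of 14 microglia and macrophage markers, C3 and Cfb. C1q and the markers are highest in PTC replicate 1 (2.02 and 1.48) and lowest in PTC replicate 2 (0.81 and 0.46), while C3 is as high in 10PTC replicate 1 (2.03) as in PTC replicate 1 (2.02).

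The genes with the most similar log2 ratios over the 6 arrays differed between complement genes. Among 15945 genes outside complement and above background throughout, C1qa lay nearest to Cd300c2, a receptor of the CD300 family (root mean square difference 0.050), Ly86, a partner of a leukocyte receptor (0.14), and Cd52, a leukocyte surface protein (0.16). C4b lay nearest to Gfap at 0.24, then to 1700110I01Rik at 0.29 and Cd300c2 at 0.30. Serping1 lay nearest to Slc25a37 (0.13), a mitochondrial iron carrier, Ctsh (0.13), a lysosomal protease, and Tmem176a (0.15). The nearest to Cfb were Kcng4, a potassium channel subunit (0.17), Bst1, a surface enzyme (0.17), and Prph, the filament protein peripherin (0.17). For C3 the nearest gene was the chemokine Ccl2, at 0.55, followed by 2900057B20Rik at 0.56 and the MHC class I gene H2-Q7 at 0.61, so that no gene followed C3 as closely as Cd300c2 followed C1qa. The measure takes in level as well as order, and it is a description over 6 arrays that are all set against PBS.

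Promoter sequence, from 250 bases before to 50 bases after the gene start, was read for C3, C1qb and C1qc (RefSeq, GRCm38.p6). Capitals mark matches on either strand to 4 motifs of factors known in inflammation. C3 and C1qc held a match each and C1qb held none. A promoter was at hand for only 3 of the 9 genes, and these 3 are given. On the arrays C1qb and C1qc were the most alike pair, while C3 stood at a root mean square difference of 0.77 from either.
C3 promoter, chr17:57228087-57228386, minus strand: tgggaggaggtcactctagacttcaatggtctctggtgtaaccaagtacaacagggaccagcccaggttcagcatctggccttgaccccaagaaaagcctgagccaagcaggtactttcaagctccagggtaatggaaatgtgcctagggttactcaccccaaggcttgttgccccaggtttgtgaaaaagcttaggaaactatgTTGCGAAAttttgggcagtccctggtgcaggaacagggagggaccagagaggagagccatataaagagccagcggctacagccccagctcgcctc
C1qb promoter, chr4:136886151-136886450, minus strand: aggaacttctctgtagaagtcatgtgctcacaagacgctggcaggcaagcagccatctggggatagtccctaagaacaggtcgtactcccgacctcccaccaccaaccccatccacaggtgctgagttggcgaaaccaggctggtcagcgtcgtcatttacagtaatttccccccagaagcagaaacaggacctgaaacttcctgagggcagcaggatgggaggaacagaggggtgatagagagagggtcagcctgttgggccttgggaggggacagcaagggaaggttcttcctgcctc
C1qc promoter, chr4:136892865-136893164, minus strand: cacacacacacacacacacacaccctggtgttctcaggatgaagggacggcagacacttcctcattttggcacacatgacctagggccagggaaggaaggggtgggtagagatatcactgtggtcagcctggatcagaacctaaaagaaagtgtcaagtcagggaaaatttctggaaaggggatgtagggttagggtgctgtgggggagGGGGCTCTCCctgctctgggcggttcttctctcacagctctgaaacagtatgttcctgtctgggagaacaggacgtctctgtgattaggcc

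In C3 the capitals are a C/EBP match (TTGCNNAA) that begins at position -45 from the gene start, and in C1qc a match to the NF-kappa-B consensus that begins at position -41. No match to the STAT motif (TTCNNNGAA) or the interferon regulatory factor motif (GAAANNGAA) lay in these windows. Among 32851 promoters of this length, 10.8% held the C/EBP motif, 8.46% the NF-kappa-B consensus, 8.3% the STAT motif and 8.56% the interferon regulatory factor motif. The matches did not overlap, and they are descriptions of sequence only.

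Outside the 9 genes, a list of 42 further complement genes was read, of which 32 were tested. Of these, 10 were higher and 2 lower at PTC, and 8 were higher and 2 lower at 10PTC, with list medians of 0.080 and 0.095. The shares of higher genes can be read against the 16.8% and 14.4% of all genes. Of the genes that passed at either dose, 3 had a PBS signal not well above background on any array.

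Of the 4 genes of the C1 proteases, which C1q carries, limma called 0 at PTC and 1, higher, at 10PTC. Of all genes 16.8% were higher at PTC and 14.4% at 10PTC. At PTC the unadjusted limma p was 0.0167 for C1ra and 0.0421 for C1s2, which lay at -0.27. C1ra had 1.07, 0.087 and 0.38 at PTC and 0.75, 0.45 and 0.41 at 10PTC, and passed at 10PTC (0.53 ± 0.19, limma adjusted p = 0.0495) but not at PTC (0.51 ± 0.51, limma adjusted p = 0.0502). C1s1 averaged 0.060 ± 0.28 at PTC and 0.081 ± 0.10 at 10PTC and passed at neither. Of 5 lectin pathway genes tested, 1 was higher at PTC and 2 at 10PTC, against 16.8% and 14.4% of all genes. The gene called at both doses passed the filter through the nanoparticle channel alone, on 3 arrays. Its PBS level is thus known only as a bound. Of 4 terminal pathway genes, which form the membrane pore, limma called none at either dose, and their medians were -0.074 and -0.099. Unadjusted, C6 had a limma p of 0.0309 at PTC, and C6 and C8g had 0.0366 and 0.0324 at 10PTC, all with ratios below 0.

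Cfd, the adipsin gene, whose protease activates factor B, was lower than in PBS at both doses. It had -2.83, -3.60 and -4.48 at PTC and -3.89, -3.73 and -3.69 at 10PTC, with means of -3.64 ± 0.82 and -3.77 ± 0.11 (SD, n = 3 each; limma adjusted p = 0.000493 and 0.000578). Adipsin is abundant in fat, and the fat markers Adipoq and Fabp4 averaged -1.88 ± 0.16 and -1.59 ± 0.18 at PTC and -1.84 ± 0.054 and -1.88 ± 0.085 at 10PTC in the same pools. The part of fat tissue in the Cfd value was not tested. Cfp, properdin, which stabilises the alternative enzyme, averaged 0.033 ± 0.12 at PTC and 0.033 ± 0.10 at 10PTC.

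Clu, clusterin, a soluble inhibitor of the membrane pore, had 1.15, 0.56 and 0.70 at PTC and 0.67, 0.87 and 0.79 at 10PTC, and rose by 0.80 ± 0.31 and 0.78 ± 0.099 (limma adjusted p = 0.00243 and 0.00362). Of 4 membrane inhibitors 1 was higher and 1 lower at PTC, and 0 and 1 at 10PTC. Of all genes 16.8% were higher and 16.3% lower at PTC, and 14.4% and 13.3% at 10PTC. Cd59a, which blocks the membrane pore, averaged 0.027 ± 0.014 at PTC and 0.11 ± 0.0074 at 10PTC, and did not pass.

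Of 9 complement receptors 5 were higher at PTC and 3 at 10PTC and none was lower, against 16.8% and 14.4% of all genes that were higher. Itgax, the alpha chain of complement receptor 4, had 0.98, 0.30 and 0.82 at PTC and 0.96, 0.70 and 0.79 at 10PTC (means 0.70 ± 0.35 and 0.82 ± 0.13, limma adjusted p = 0.00566 and 0.00465). Itgam, the alpha chain of complement receptor 3, averaged 0.33 ± 0.13 and 0.28 ± 0.018 (limma adjusted p = 0.00530 and 0.0116). C3ar1, the receptor of the C3a fragment, averaged 0.44 ± 0.32 and 0.40 ± 0.11 (limma adjusted p = 0.0203 and 0.0319). C5ar1, the receptor of C5a, was read above background in all nanoparticle pools and in no PBS channel, so that its PBS level is known only as a bound. The log2 ratios were 1.04, 0.17 and 0.32 at PTC and 0.28, 0.30 and 0.14 at 10PTC, which puts the PTC mean at least 1.42-fold higher (limma adjusted p = 0.0347), with 2 of 3 pools below that mean. At 10PTC it did not pass (limma adjusted p = 0.265), with a 95% interval of -0.11 to 0.58. The bound sets the nanoparticle mean against the gene's own PBS signal, which set the floor, and is open to dye bias. Most of these receptors are also leukocyte genes. Itgax, C3ar1 and C5ar1 were highest in PTC replicate 1, as the median of the microglia and macrophage markers was. Itgam was highest in PTC replicate 2 (0.47), where that median was lowest. The part of leukocytes in the receptor values was not tested.

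**Figure D4:**
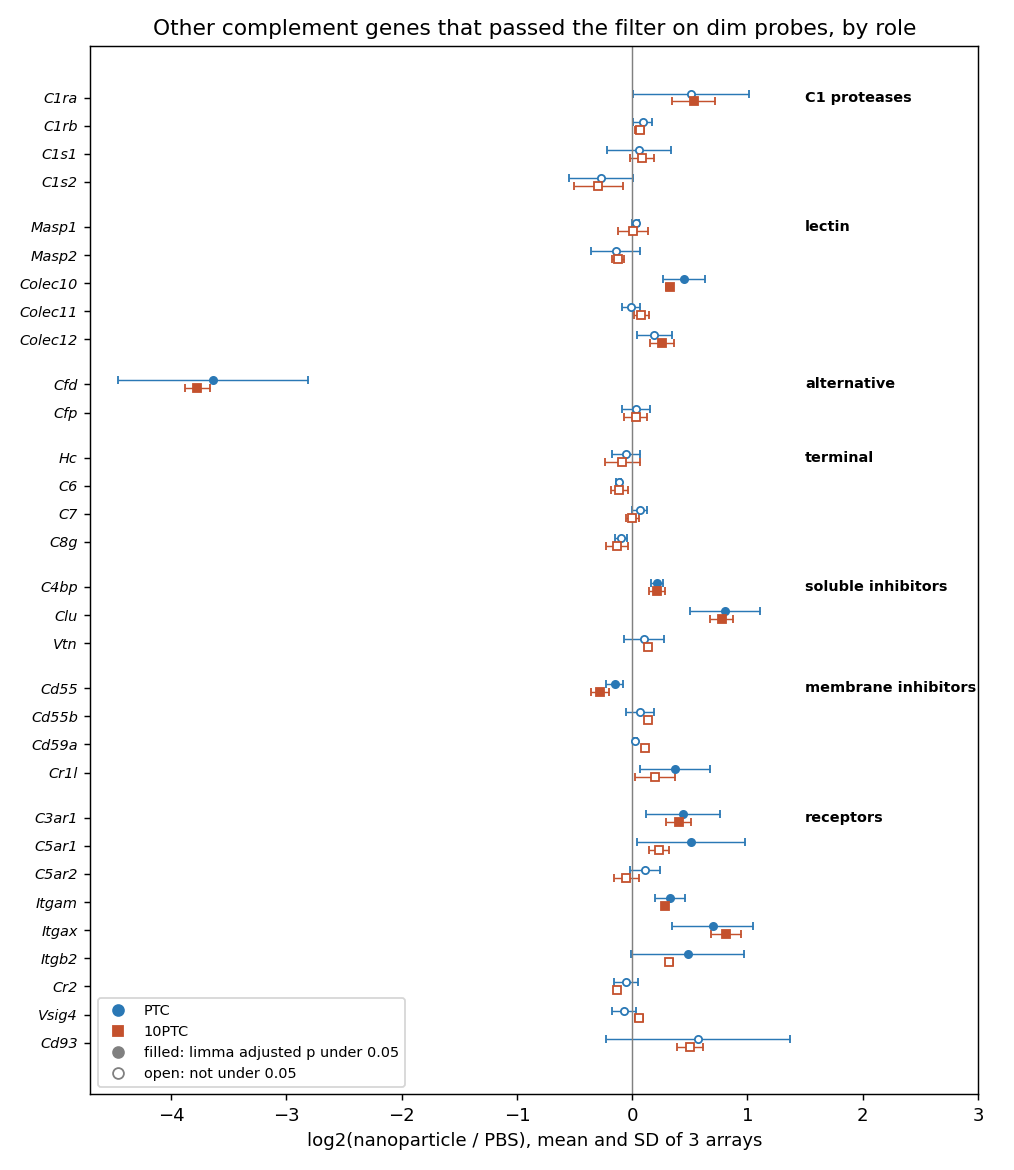
Mean log2 ratio of nanoparticle over PBS (horizontal axis, with SD of 3 arrays) at PTC and 10PTC for the further complement genes tested and reported here, by role, with filled marks where the limma adjusted p was under 0.05. Cfd lies near -3.7, apart from all others, Clu and Itgax lie between 0.70 and 0.82, and the terminal pathway genes lie near 0.

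Slide was partly mixed with dose. With slide as a block, 6 of 9 genes were called at PTC and 2 of 9, C4b and Cfi, at 10PTC, where C1qa had 1.34 (limma adjusted p = 0.0628) and Serping1 1.06 (limma adjusted p = 0.0606). In that fit the 10PTC ratio is carried to the average of both slides, though all its arrays lie on slide 2. The shares of all genes higher in that fit were 11.2% and 2.29%. Within slide 2, 8 of 9 were called at 10PTC, all but C2, against 18.8% of all genes. There is a single PTC array on that slide, so its test takes the spread of the 10PTC arrays as its own, and on that footing 5 of 9 were called at PTC, against 3.65% of all genes. Within slide 1, with 2 PTC arrays and no 10PTC array, 1 of 9 was called at PTC, C4b, against 0.616% of all genes. All 9 log2 ratios were above 0 at each dose that these fits hold.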

How the data were processed

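Total RNA of 4 pooled retinas was extracted with Trizol, copied into cDNA and labelled with Cy3 (PBS) or Cy5 (nanoparticles), per the labels' protocols. The deposited scanner files hold spot intensity in 2 channels and log10 ratio values, made with Agilent Feature Extraction 10.7.3.1 per the file headers (the submitters' processing notes name 9.3.2.1). The authors also deposited log2 ratio values; set against the log10 ratios their slope was 3.32, so they run as Cy5 over Cy3, with column medians of -0.075 to 0.039, and their centring stays unknown.

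Mean signals were corrected with normexp (offset 50) on the median local background and normalized by loess within each array in limma 3.58.1 (R 4.3.3, data.table version 1.17.8). Outlier spots were dropped, spots of a probe averaged, probes kept if either channel was well above background in 3 or more of 6 arrays, and the brightest probe taken per gene. A limma model with a coefficient per dose was fitted over 26138 genes on all 6 arrays (4 residual and 3.41 prior degrees of freedom), and p-values were adjusted by Benjamini-Hochberg over all of them, with calls made under 0.05. Both doses are set against PBS and share the estimate of spread. The steps were tested on simulated data.

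The 9 genes, the 42 further complement genes, the marker lists and the motifs were chosen with earlier results of these data known. Named further genes are those that passed at either dose with an absolute log2 ratio of 0.5 or more, plus Clu, Cd59a, C3ar1, C5ar1, Itgam, C1ra, C1s1, Cfd and Cfp; C1s2, C6 and C8g are named after their values were seen, beside counts of 0. Some results of that list are not reported here. No genome was used here; probe positions (mm9) were read from the scanner files, and no protein sequence was used. Whether replicate numbers pair the samples is not known. Same-numbered PTC and 10PTC arrays had deviations correlated at -0.27, 0.15 and 0.20, which did not show pairing. With so few arrays per dose, these correlations cannot decide the question. Alternatives were other background and scaling steps, the authors' values, other filters and probe rules, slide or replicate blocks, values within a slide, array weights and each array left out.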

Additional observations from a re-analysis of the deposited data

How the results depend on the processing

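All 9 complement genes kept log2 ratios above 0 at PTC and 10PTC under every alternative run, and none was called between the doses under any. The number called at 10PTC fell to 2 with slide as a block, and the number called at PTC to 1 within slide 1, which leaves 2 arrays. Leaving out each array in turn gave 6 to 7 genes called at PTC, 4 to 9 at 10PTC and 0 between the doses. Over the same fits classical minus inhibitor was 0.388 to 0.561 at PTC and -0.0672 to 0.125 at 10PTC, and classical minus alternative 0.560 to 0.768 and -0.259 to 0.354. On the scanner software's processed signals, classical minus inhibitor at 10PTC was -0.0233 and as a mean over probes -0.0808, both smaller than the SD of 0.206. With a replicate block 7 genes were called at PTC and 8 at 10PTC, where C3 passed (1.31, limma adjusted p = 0.0387), and none between the doses; the numbers are not known to pair the samples. Median centring in place of loess called 7 genes at PTC and 9 at 10PTC, and moved the split of all genes to 8204 higher and 4219 lower at PTC and 9647 and 4992 at 10PTC, against 4404 and 4251 and 3762 and 3469 with loess. Slide as a block left 599 genes higher and 410 lower at 10PTC; array weights gave 6259 and 6003, and scanner signals 2229 and 2185. Without 10PTC replicate 1 the split was 770 and 589, and without replicate 3 it was 864 and 703. The cause of these shifts was not tested. Swapping in the other probes of C3 and Serping1, added after seeing the data, left 7 called at each dose. Of the single-gene values, 501 kept their direction and side of the threshold, 30 were no longer called and 9 were newly called. The 501 take in differences between the doses, where none of the genes was called under any alternative. They also take in values that an alternative leaves unaltered. The number of arrays limits the precision; all member probes were well above background.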
